A study of Mus musculus with 2 samples.

Results

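The RAB genes encode the largest branch of the RAS-related small GTPases, and the binding of the transcription factor TCF12 around them was read from ChIP-seq of the mouse line CH12.LX. Members were all autosomal protein-coding genes of the mouse build mm10 whose symbol is Rab followed by a number and optional letters. Of 57 such symbols, Rab3ip and Rab5if name interacting proteins and were left out, which gave 55 RAB genes of 20324 autosomal protein-coding genes with a known strand. The 4 RAB genes on chromosome X (Rab33a, Rab39b, Rab9b and Rab9) lie outside this choice. CH12.LX is an immortalised B-cell lymphoma line from a female mouse of strain B10.H-2aH-4bp/Wts. It was measured with an antibody against TCF12 in 2 biological replicates that form 1 group, with no treatment and no second condition named in the labels, and both replicates carry the same donor label. Everything below therefore describes 1 line without a comparison between conditions, and no expression values enter it.

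RAB proteins are molecular switches of membrane traffic. Exchange factors load them with GTP on a given membrane, where they recruit effectors such as tethers and motor adaptors, and GTPase-activating proteins switch them off. Lipid groups added by the RAB geranylgeranyl transferase anchor them, and dissociation inhibitors extract them again. In B cells this traffic carries the antigen receptor and its antigen into endosomes and lysosomes and takes loaded MHC class II and secreted products to the surface. TCF12, or HEB, is one of the E proteins. These basic helix-loop-helix factors dimerise on E-boxes (CANNTG) and are known for their part in B-cell and T-cell development.

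The sequences below are 101 bases of the mm9 plus strand, 5′ to 3′, centred on summits in the windows of 9 RAB genes. They were picked among the strongest peaks and for differing motif content, so they do not represent all RAB summits. Rab34, Rab1a, Rab25, Rab12 and Rab10 were also among the 12 leading members. Their strongest windows held none of the motifs below and are not shown. Capitals mark every CANNTG and every match to a short motif of another factor that was searched on both strands: CCGGAAGT for ETS factors, GAGGAAGT for PU.1, CCCNNGGG for EBF1, ATGCAAAT for octamer factors, TGTGGTTT for RUNX, TGANTCA for AP-1, TGACGTCA for CREB and GATGGCGG for YY1. CAGGTG is CACCTG read on the other strand, and ACTTCCGG is the ETS motif read on the other strand. Intron and exon numbers are those of the GENCODE vM1 models. The second Rab37 peak, the Rab11a promoter peak and the Rab30 and Rab3b peaks were chosen after their values were seen. Each of these later choices holds a marked motif.
Rab37, strongest peak, intron 1 of 8, chr11:114968094-114968194: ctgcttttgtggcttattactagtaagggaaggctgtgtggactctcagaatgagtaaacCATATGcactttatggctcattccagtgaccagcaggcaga
Rab37, second peak, intron 1 of 8, chr11:114966624-114966724: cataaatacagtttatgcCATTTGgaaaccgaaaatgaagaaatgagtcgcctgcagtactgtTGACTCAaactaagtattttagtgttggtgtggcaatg
Rab42, upstream peak, chr4:131864544-131864644: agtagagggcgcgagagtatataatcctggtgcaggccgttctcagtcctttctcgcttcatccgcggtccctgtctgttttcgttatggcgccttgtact
Rab20, strongest peak, intron 1 of 1, chr8:11464065-11464165: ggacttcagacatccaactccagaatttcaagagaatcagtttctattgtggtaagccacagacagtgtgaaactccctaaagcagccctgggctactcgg
Rab21, strongest peak, intron 1 of 6, chr10:114751968-114752068: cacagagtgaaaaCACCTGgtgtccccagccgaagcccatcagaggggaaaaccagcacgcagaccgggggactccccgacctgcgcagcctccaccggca
Rab22a, promoter peak, exon 1 of 7, chr2:173485308-173485408: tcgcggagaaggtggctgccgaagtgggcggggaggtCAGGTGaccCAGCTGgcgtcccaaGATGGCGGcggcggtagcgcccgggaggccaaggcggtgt
Rab11a, upstream peak, chr9:64590411-64590511: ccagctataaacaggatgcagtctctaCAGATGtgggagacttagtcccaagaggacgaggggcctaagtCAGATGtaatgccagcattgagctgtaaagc
Rab11a, promoter peak, chr9:64585537-64585637: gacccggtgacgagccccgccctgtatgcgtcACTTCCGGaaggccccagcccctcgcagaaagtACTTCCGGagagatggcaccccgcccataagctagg
Rab24, promoter peak, chr13:55423320-55423420: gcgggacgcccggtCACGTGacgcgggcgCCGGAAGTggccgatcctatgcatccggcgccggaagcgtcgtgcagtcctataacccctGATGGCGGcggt
Rab30, intron 2 of 4, chr7:99969058-99969158: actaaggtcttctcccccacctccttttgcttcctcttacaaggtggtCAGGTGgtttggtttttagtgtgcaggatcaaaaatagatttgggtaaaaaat
Rab30, promoter peak, chr7:99889952-99890052: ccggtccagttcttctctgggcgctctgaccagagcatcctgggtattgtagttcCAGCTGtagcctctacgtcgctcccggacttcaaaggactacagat
Rab3b, intron 2 of 4, chr4:108580252-108580352: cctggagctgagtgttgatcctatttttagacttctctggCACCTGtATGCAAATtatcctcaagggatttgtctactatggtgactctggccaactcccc

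A match of these letters is a description of the window and not a binding site by itself. The strongest Rab37 window held no CAGCTG or CACCTG, which are the main E-boxes counted below, and its only E-box was CATATG 10 bp from the summit. The second Rab37 window held CATTTG and an AP-1 motif. The windows of Rab42 and Rab20 held none of the listed motifs. Rab21 held 1 CACCTG, Rab22a held CAGCTG 4 bp from the summit beside CACCTG and a YY1 motif, and Rab24 held CACGTG with an ETS and a YY1 motif. The upstream Rab11a window held CAGATG at 2 places, and the Rab11a promoter window held 2 ETS motifs and no E-box. A CAGCTG lay just outside that mm9 window, in the RefSeq promoter sequence of Rab11a, so the Rab11a promoter does not lack a main E-box. In the Rab3b intron, CACCTG and the octamer lay 1 base apart. Of the strongest mm9 peaks of the 12 RAB genes that led on mm10, only those of Rab21 and Rab22a held a main E-box.

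Peaks were taken from the optimal list of 35848 peaks that passed the reproducibility step of the authors (IDR, which keeps peaks whose ranks repeat). Passing it does not mean that a peak is high in both replicates. A gene counted as having a peak when a summit lay between 10 kb upstream of its 5′ end and its 3′ end. The peak height, called signal here, is the caller's own value with no stated scaling, so it serves to rank peaks and to compare ranks, not amounts of binding. A summit in a window does not show that the gene is regulated from it.

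TCF12 peaks were found at 46 of the 55 RAB genes, or 83.6% (95% Wilson interval 71.7 to 91.1%, counting error only). Over all autosomal protein-coding genes, 58.6% had one. A summit within 1 kb of the 5′ end, called a promoter peak, was present at 33 RAB genes (60%, 46.8 to 71.9%) against 41.6% of all genes. The peak heights of the RAB genes were near those over all genes. The strongest signal was 100 or more at 6 of 55 RAB genes (10.9%), beside 11.7% of all genes, and the median strongest signal was 55.6 for RAB genes with a peak and 59.2 for all genes with a peak. The quartiles were 38.9 and 80.7 for the RAB genes and 39.0 and 91.3 for all genes. Peak number was also near the background: 8 of 55 RAB genes (14.5%) had 4 or more summits, beside 11.8% of all genes, and the median was 2 for both among genes with a peak. No test was made of any of these shares, since there is 1 group and the members were not sampled.

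The share of all genes with a peak rose with gene length, so the shares were also read by length. RAB genes had a median span of 24.8 kb against 17.7 kb over all genes, and a longer window has more room for a summit. Among the shortest genes, up to 9.23 kb, all 8 RAB genes had a peak against 39.8% of all genes of that length. Between 9.24 and 31.9 kb, 22 of 28 RAB genes had one (78.6%) against 65.6%. Among longer genes, 16 of 19 had one (84.2%) against 70.4%. For promoter peaks the RAB share was 37.5% against 30.3% in the short group, 71.4% against 50.1% in the middle group and 52.6% against 44.4% in the long group. The RAB share was above that of all genes in each group, with few genes in the short one. Only 3 of the 8 short RAB genes (Rab24, Rab1b and Rab29) had a promoter peak. The summits of Rab42, Rab34 and Rab3a all lay upstream.

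The RAB windows held 123 distinct summits. Of these, 44 (35.8%) lay at the promoter with a median signal of 40.0, 57 (46.3%) in the gene body with a median of 30.4, and 22 (17.9%) upstream with a median of 29.1. The median over all 123 was 35.2, beside 35.9 for all peaks in any gene window, and all promoter peaks had a median of 43.9. The promoter summits sat close to the start, at a median distance of 129.5 bp, with 33 of 44 within 250 bp, 21 on the downstream side and 23 on the upstream side. The strongest peak was at the promoter for 24 genes, in the body for 13 and upstream for 9. The plot of summits by position shows the tight promoter cluster and the higher summits on either side of it. Measured from the outermost 5′ end, the cluster stayed under a signal of 100. That limit does not hold for every annotated start, since a RefSeq start of Rab21 lay close to a summit of 107.

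**Figure D1:**
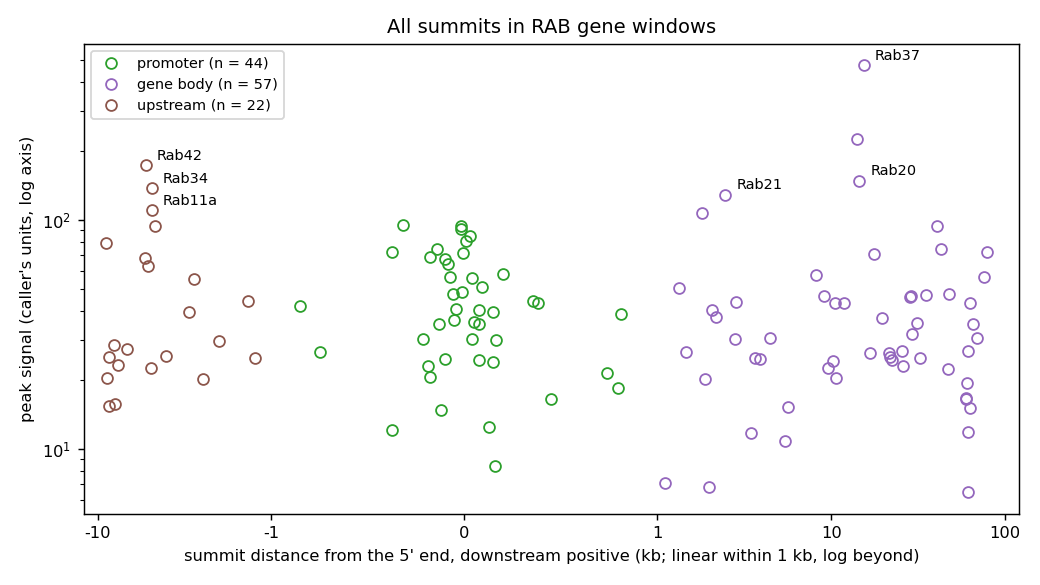
Each circle is 1 of the 123 summits in RAB gene windows, by distance from the gene's 5′ end (x, kb, downstream positive, linear within 1 kb and log beyond) and signal (y, caller's units, log axis), coloured by place. The promoter summits, within 1 kb of the outermost 5′ end, reach 95.4. The summits labelled Rab37, Rab42, Rab20, Rab34, Rab21 and Rab11a lie between 109.9 and 473, farther from that end.

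A RAB window often held the start of another gene. Of the 123 summits, 94 (76.4%) were nearer to the 5′ end of the RAB gene than to that of any other protein-coding gene, and 33 (26.8%) also lay in the window of another gene, beside 16.98% of all summits in gene windows. For 5 genes the strongest peak was outside their own promoter and at the promoter of another protein-coding gene: Rab34 at Rpl23a, a ribosomal protein gene, Rab25 at Lamtor2 and Ubqln4, Rab5b at Cdk2, Rab27a at Pigb and Pigbos1, and Rab19 at Slc37a3. The only summit of Rab42 was 2 bp from the RefSeq span of Snhg12, a noncoding RNA gene that hosts small nucleolar RNAs. A further 5 promoter summits were shared with a neighbour that starts within 1 kb, namely Prelid1 at Rab24, Tox4 at Rab2b, Rps27 at Rab13, Mrpl48 at Rab6a and Pmel at Rab5b. Which gene such a summit acts on was not tested.

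Rab37, which belongs to secretory granules and regulated release, had the strongest peak of the family. It reached a pooled signal of 473, with 248 in replicate 1 and 227 in replicate 2, and was the peak of rank 3 in the whole list. The peak spans chr11:115106641-115107030 on mm10, 15.5 kb downstream of the 5′ end, in intron 1 on the mm9 models. A second intron peak 14.0 kb downstream had a signal of 226, with 139 and 89.9 in the replicates. Both replicates therefore held both peaks far above the members' median. The window held 18 summits, 16 in the gene body and 2 upstream, or 2.21 per 10 kb, and 65 of all genes (0.320%) had at least as many. Several neighbouring summits shared 1 replicate peak, and overlapping peaks merged to 14. None lay within 1 kb of the outermost 5′ end, and the nearest upstream summit, 1.24 kb away, had a signal of 24.96. Here too the place depends on the start used: on mm9 a summit 62602 bp inside the gene lay 124 bp from the start of a shorter annotated Rab37 transcript.

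Only 7 of the 18 summits were nearest to Rab37 itself, among them the strongest 2. Cd300lf, an inhibitory receptor gene of myeloid cells, lies inside Rab37 on the other strand with its 5′ end 44.0 kb downstream. The summits at 40.7 kb (signal 93.6; 45.3 and 44.9 in the replicates) and 42.7 kb (74.6; 42.0 and 34.3) were among the 4 nearest to it. The other 7 summits were nearest to Slc9a3r1, which starts beyond the 3′ end. The high peaks at 14.0 and 15.5 kb stood alone in the plot of the Rab37 window.

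**Figure D2:**
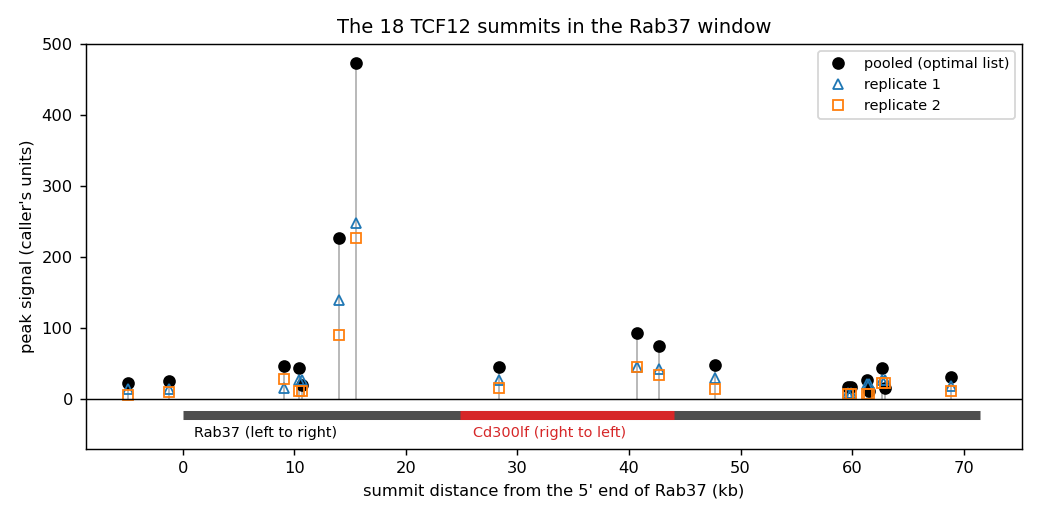
The 18 summits in the Rab37 window by distance from the Rab37 5′ end (x, kb) and signal (y, caller's units) in the pooled list (black circles), replicate 1 (blue triangles) and replicate 2 (orange squares), with the spans of Rab37 and Cd300lf below. Pooled signals are 473 and 226 at 15.5 and 14.0 kb and 93.6 or less elsewhere.

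All 8 RAB genes of early endosomes and uptake had a peak in the optimal list, beside 58.6% of all genes, and 5 had one at the promoter, beside 41.6%. With an IDR score of at least 830, or with replicate 2 alone, Rab5a and Rab31 lost theirs, which left 6 of 8. At these settings 52.3% and 59.6% of all genes had a peak. The median strongest signal was 82.1. Rab20, known for its place on macropinosomes and phagosomes, had 7 summits. The strongest was 14.5 kb downstream with a pooled signal of 149, and its replicates were almost equal at 76.6 and 73.7. Its promoter peak was lower at 40.5. Rab34, which acts in macropinocytosis and lysosome positioning, reached 137 (71.7 and 63.3) at the Rpl23a start, 4.89 kb upstream of its own 5′ end. Rab21, a regulator of integrin traffic, reached 129 (90.1 and 39.7) at 2457 bp downstream and 107 (62.3 and 45.2) at 1797 bp. On the mm9 models the strongest Rab21 peak was 629 bp from the start, so its place depends on which 5′ end is used. The promoter peak counted for Rab21, of signal 18.5, was lost in the conservative list, at the stricter score, in replicate 1 alone and with a promoter of 500 bp. Rab22a, which sorts cargo back from early endosomes, reached 85.0 (48.2 and 30.8) at 29 bp from its start.

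The Rab5 paralogs, which drive early endosome fusion, differed from each other. Rab5c had a promoter peak of 68.9. Rab5b had 79.2 at the Cdk2 start 8.90 kb upstream and 51.0 at its own promoter. Rab5a had a single intragenic summit of 22.5 (13.7 and 7.57). Rab31, a close relative of Rab22a, also lacked a promoter peak and reached 26.3 (19.2 and 6.56). These 2 were among the weakest strongest peaks of the family.

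Of the 13 RAB genes of recycling and return to the surface, 9 had a peak (69.2%, beside 58.6% of all genes) and 8 had one at the promoter (61.5%, beside 41.6%), with a median strongest signal of 67.7. Rab11a, the main RAB of the recycling endosome, reached 110 at 4896 bp upstream, with 87.4 in replicate 1 and 21.6 in replicate 2. That was the most unequal pair among the 12 strongest members, a ratio of 4.05. Its promoter peak was more even, 72.0 pooled with 40.0 and 28.4. Rab25, an epithelial relative of Rab11a, reached 94.0 (49.5 and 47.1) at the Lamtor2 start. Rab10, which delivers cargo to the plasma membrane, reached 81.2 (47.1 and 38.2) at 7 bp from its start.

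Promoter peaks also led at Rab8a with 72.5, Rab35 with 67.7, Rab13 with 64.1, Rab11b with 44.4 and Rab8b with 35.8, genes for traffic to the plasma membrane and back. The strongest summit of Rab14 was 55.3, 2.80 kb upstream of its start, and its promoter peak was 35.1. Rab4a, Rab4b, Rab15 and Rab17 had no optimal peak. Rab4a and Rab4b are the paralogs of the rapid recycling route. Rab4b did have a peak, at its promoter, in the conservative list and in each replicate alone, and Rab4a had one when summits were given to the nearest 5′ end.

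Of the 9 late endosome and lysosome genes, 6 had a peak (66.7%, beside 58.6%) and 4 had one at the promoter (44.4%, beside 41.6%), with a median strongest signal of 73.6. Rab42 had the second strongest peak of all members, 173 (112 and 56.9), at the Snhg12 start 5.29 kb upstream, and no other summit. Rab24, linked to autophagy, reached 94.1 (59.3 and 36.97) in a 124 bp peak at its start and that of Prelid1. Rab12, which takes part in receptor degradation, reached 91.3 (55.5 and 34.8) at 17 bp from its start. Rab7, the RAB of late endosome and lysosome fusion, had 1 promoter peak of 55.8, and it was 1 of 3 members whose strongest peak was higher in replicate 2 (29.9) than in replicate 1 (25.8). Rab7b had 43.4 in its gene body and Rab29 had 29.7 at its promoter. With an IDR score of at least 830, Rab29 lost this peak, which was its only summit. At that setting 52.3% of all genes had a peak and 36.9% had one at the promoter. Rab32 and Rab38, the paralogs of melanosomes and related organelles, and Rab36 had no optimal peak.

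All 12 ER and Golgi genes had a peak in the optimal list, beside 58.6% of all genes, and 11 had one at the promoter (91.7%, beside 41.6%). Rab18 lost its peak in the conservative list, and Rab39 at an IDR score of at least 830 and in replicate 2 alone. That left 11 of 12 in each case, beside 58.5%, 52.3% and 59.6% of all genes. The peaks were moderate, with a median strongest signal of 47.1 and none of 100 or more. Rab1a, which controls transport from the ER to the Golgi, led with 95.4 (66.7 and 36.5) at 318 bp upstream. Its paralog Rab1b had 47.4 at its promoter. Rab2b had 74.4 and Rab2a 38.7, both at the promoter. For Rab6a, which runs retrograde Golgi traffic, the promoter peak was 40.9, while Rab6b had no promoter peak and reached 46.7 at 35.2 kb downstream. Rab30 of the Golgi was strongest at 72.1 (35.1 and 34.6), 79.0 kb inside its gene, with 48.2 at the promoter. Rab33b (56.1), Rab43 (50.5), Rab19 (39.4), Rab18 (36.4) and Rab39 (16.5, the lowest of all members with a peak) completed the group. Rab18, the RAB of lipid droplets, was higher in replicate 2 (29.7) than in replicate 1 (17.5).

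Of the 9 genes of regulated secretion, 7 had a peak (77.8%, beside 58.6% of all genes), and Rab27a and Rab3d had one at the promoter (22.2%, beside 41.6%). Their median span was long, 52.8 kb. Among all genes of the long group, 70.4% had a peak and 44.4% had one at the promoter, which is the nearer comparison. The Rab27a promoter peak was lost at the stricter score, Rab3a gained one in replicate 2 alone, and Rab37 and Rab3a gained one with a promoter of 2 kb. Apart from Rab37, their signals were low to moderate. Rab27a, which docks lytic and secretory granules, reached 62.6 (34.9 and 29.1) at the Pigb start and 24.5 at its own promoter, while its paralog Rab27b had no optimal peak. The Rab3 paralogs of synaptic and secretory vesicles had peaks at Rab3b (46.4, 28.6 kb downstream), Rab3a (44.3, 1356 bp upstream) and Rab3d (35.0, at the promoter), and none at Rab3c. Rab44 reached 35.5 and Rab26 reached 30.4, both in the gene body. In the remaining group, Rab23 of the cilium reached 57.9 (29.8 and 30.9), Rab40c 42.1, Rab28 30.1 and Rab40b 23.0 (19.2 and 2.78). Rab40b was the member whose strongest peak had the lowest replicate 2 signal.

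**Figure D3:**
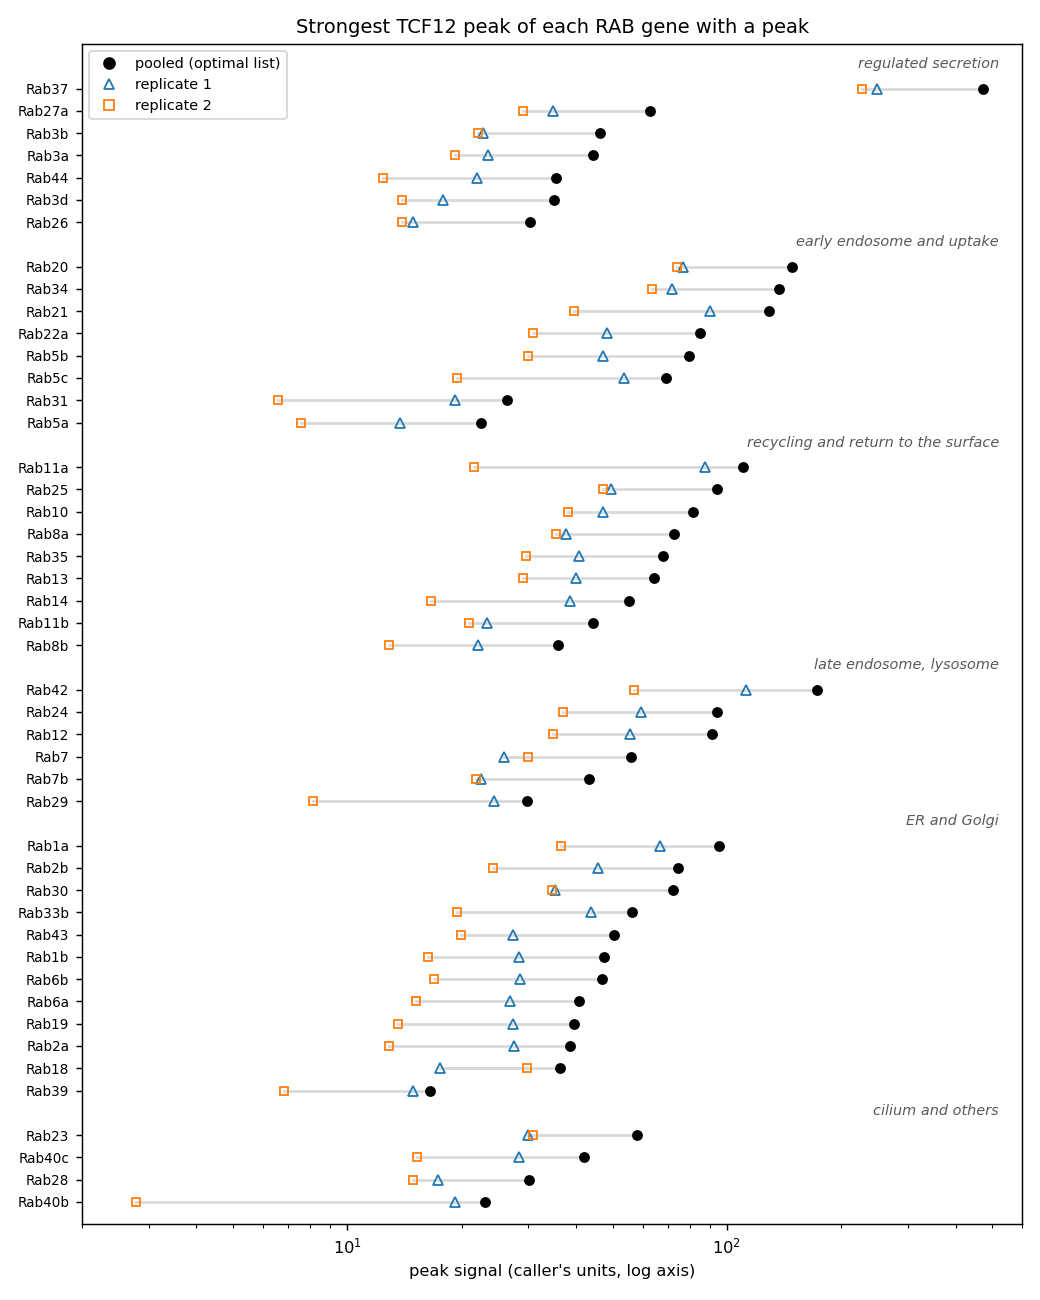
Signal (x, caller's units, log axis) of the strongest peak of each of the 46 RAB genes with a peak, by role group: pooled (black circles), replicate 1 (blue triangles) and replicate 2 (orange squares). Rab37 stands apart at 473, and replicate 2 is above replicate 1 only at Rab7, Rab18 and Rab23.

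The 9 RAB genes without an optimal peak had weak signal in the relaxed list, which holds peaks and background together. Their highest pooled value ranged from 6.43 at Rab32 to 21.1 at Rab4b. Rab4b was the highest of this set, with 21.9 in replicate 1 and 9.35 in replicate 2. Its pooled value was above the strongest optimal peak of Rab39, at 16.5, and so was that of Rab36. Rab36 had 16.9 and Rab4a 13.2, and Rab17, Rab27b, Rab3c, Rab15 and Rab38 were between 7.92 and 11.6. Rab3c and Rab27b are the longest genes of the family at 227 and 163 kb.

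The optimal list was made from both replicates, and the relaxed lists hold peaks and background together, so a match in both is easily met. A match is not a high peak in each replicate. At the Rab40b peak the replicate 2 signal was 2.78, of rank 269269 in that replicate. Of the 123 summits, 118 (95.9%) had an overlapping peak in the relaxed lists of both, beside 97.1% of all autosomal optimal peaks. Replicate 1 had the higher signal at 109 of them (92.4%), as it did at 85.7% of all autosomal optimal peaks. The median ratio of replicate 1 to replicate 2 was 1.58 (quartiles 1.17 and 2.27), beside 1.66 (1.21 and 2.34) for all peaks. Since the signal has no stated scaling, this ratio is not a difference in binding. The strongest peak was among the 35848 highest of each replicate for 42 of the 46 genes, and the other 4 were Rab31, Rab40b, Rab5a and Rab39.

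Genes that regulate RAB proteins or bind them were read in the same way. Of 122 such genes, 104 had a peak (85.2%, Wilson interval 77.9 to 90.5%) beside 58.6% of all genes, and 78 had one at the promoter (63.9%) beside 41.6%. Their median span was 52.3 kb, longer than that of the RAB genes. Among all genes of the long group, from 31.9 kb, 70.4% had a peak and 44.4% had one at the promoter. These shares are the nearer comparison for such long genes. A signal of 100 was reached by 21 of 122, beside 11.7% of all genes. The chaperone and prenylation genes all had a peak, 6 of 6, beside 58.6% of all genes. Their median span was shorter, 6.26 kb, and 39.8% of all genes of the short group had a peak. Rabggtb and Rabggta, which encode the subunits of the RAB geranylgeranyl transferase, reached 282 (164 and 123) at 31 bp upstream and 249 (132 and 113) at 2.38 kb upstream. These 2 were higher than every RAB gene except Rab37. Chml, an escort protein gene, had 63.3, Gdi2, a dissociation inhibitor gene, 62.1, and Rabif 58.5. The only Chml summit lay nearest to Opn3.

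Of 34 exchange factor genes, 29 had a peak (85.3%), beside 58.6% of all genes and 70.4% of all genes of the long group. Their median span was 49.8 kb. They were led by Dennd4b (223), Dennd4a (205), Dennd3 (158), Rabgef1 (109), which activates Rab5, and Rin3 (86.7). Rin1, Rab3il1, Rin2 and Dennd2c were among those without a peak. Of 39 GTPase-activating protein genes, with a median span of 67.6 kb, 34 had a peak (87.2%, beside the same 58.6% and 70.4%). Tbc1d16 reached 272 (157 and 127) and held 22 summits, more than Rab37, but its strongest lay nearest to Ccdc40. Tbc1d8 (180), Tbc1d31 (175), Tbc1d10a (166) and Sgsm2 (148, nearest to Tsr1) followed, and Tbc1d30, Tbc1d24, Sgsm1 and Grtp1 were among those without a peak. Of 43 effector genes, with a median span of 50.2 kb, 35 had a peak (81.4%, again beside 58.6% and 70.4%). Rilpl2 reached 174, Rabep1, the Rab5 effector rabaptin, 167 at 63 bp from its start, Sytl1 151, Myrip 150 and Rufy3 145. The only Sytl1 summit lay 8.02 kb upstream and nearest to Tmem222. Rims1, Mlph, Rilp and Lrrk2 were among the effectors without a peak. Mlph and Myrip, which link Rab27 to myosin motors, thus differed.

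**Figure D4:**
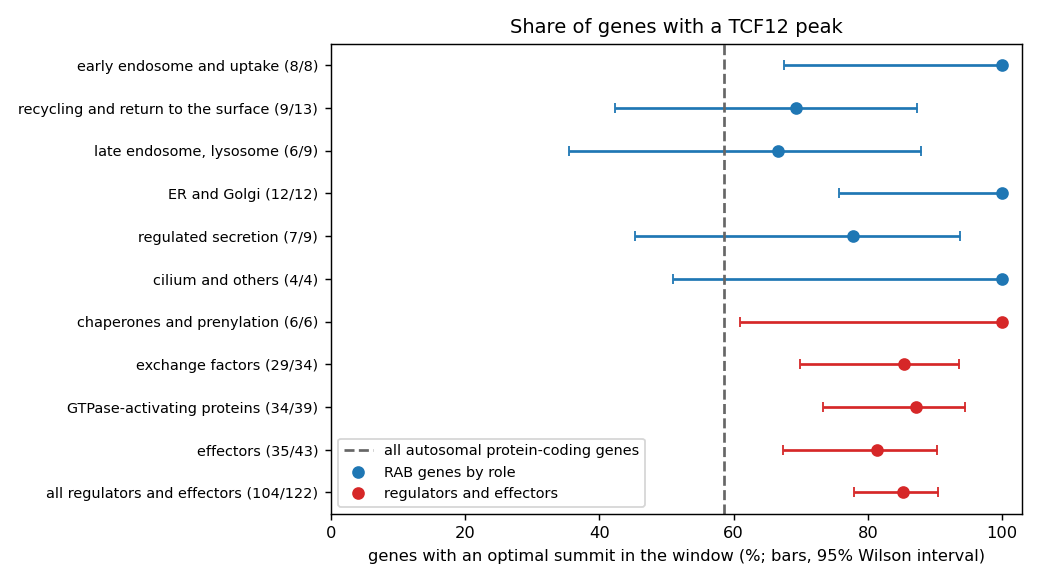
Share of genes with an optimal summit in the window (x, %, bars show 95% Wilson intervals) for the 6 RAB role groups (blue) and the regulator and effector lists (red), with the counts beside each name and the 58.6% of all autosomal protein-coding genes as a dashed line. All points lie above the line, and the intervals of 4 RAB groups reach below it.

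Sequence could be read on mm9, where the authors deposited a separate list. It held 77 summits in the windows of 39 RAB genes. A main E-box, CAGCTG or CACCTG wholly within 50 bp of the summit, was present at 22 of them (28.6%, Wilson interval 19.7 to 39.5%), beside 31.1% of the 23294 autosomal mm9 peaks. Only 11.7% of windows of the same length in the flanks of the RAB peaks held one, beside 12.2% for all peaks. CAGCTG was found at 14 of the 77 (18.2%, beside 15.5% of all) and CACCTG at 9 (11.7%, beside 19.2%). Within 1 kb of any annotated start, 10 of 40 summits in RAB windows held a main E-box (25%, 14.2 to 40.2%) beside 14.5% of all such summits. Away from starts, 12 of 37 did (32.4%, 19.6 to 48.5%) beside 39.6%. The intervals of these 3 shares, over all places, near starts and away from them, hold the share over all peaks of the same kind. Near starts, 2 narrower counts did not. CAGCTG was present at 8 of the 40 summits (20%, 10.5 to 34.8%) beside 7.55%, and a main E-box within 25 bp at 7 of 40 (17.5%, 8.75 to 31.9%) beside 7.69%. The 40 summits include several pairs in 1 gene, and many motif and place combinations were counted, so these 2 are given as descriptions.

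**Figure D5:**
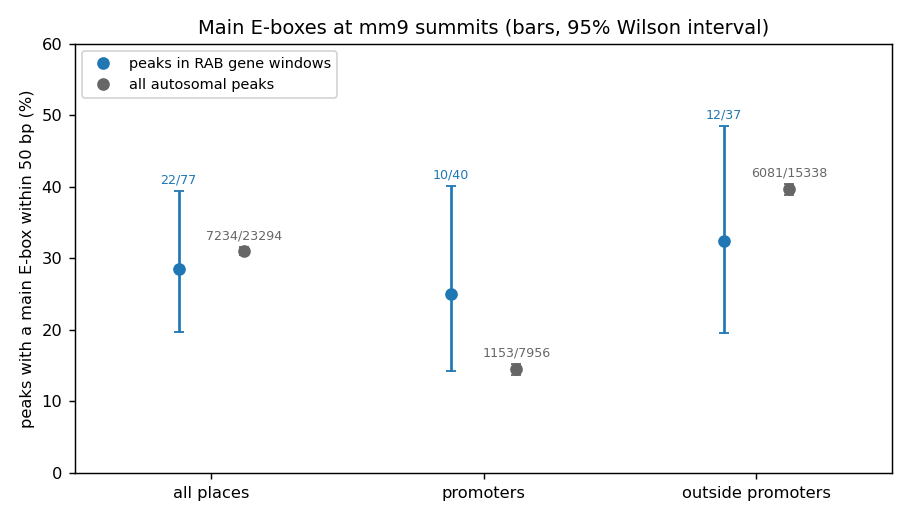
Share of mm9 summits with CAGCTG or CACCTG within 50 bp (y, %, bars show 95% Wilson intervals) in RAB gene windows (blue) and over all autosomal peaks (grey), in all places, within 1 kb of a start and outside it, with counts above. RAB shares are 28.6, 25 and 32.4% against 31.1, 14.5 and 39.6%.

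Main E-boxes were found at 15 of the 39 genes (38.5%, beside 35.9% of all mm9 genes with a peak) and at the strongest mm9 peak of 11 (28.2%, beside 23.8%). Rab30 had one at each of its 5 mm9 peaks, among them CACCTG 2 bp from the intron summit shown above and CAGCTG 5 bp from the promoter summit. Rab5b had CAGCTG at both of its peaks. Rab3a and Rab3d each had CAGCTG, 5 and 7 bp from the summit, and Rab3b had CACCTG. At Rab20 only weaker intron peaks held one, and at Rab37 2 of 11 mm9 peaks did, neither of them the strongest. The place of the RAB summits on mm9 was the promoter of some gene for 51.9%, an intron for 35.1%, an exon for 3.90% and between genes for 9.09%, beside 34.2, 30.5, 4.80 and 30.6% for all peaks. The windows leave out most ground between genes, which bears on these shares.

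In the RefSeq promoter sequences of build GRCm38.p6, 250 bases before to 50 after each start, 44 of the 55 RAB genes were listed with 56 starts. CAGCTG was present at 13 of the 56 (23.2%), beside 16.3% of all listed promoters, and CACCTG at 9 (16.1%), beside 20.5%. The YY1 motif was present at 4 starts (7.14%), of Rab22a, Rab24, Rab28 and Rab5c, beside 1.69% of all promoters. The ETS motif was present at 2 (3.57%), of Rab11a and Rab24, beside 3.95%. Rab15, Rab17 and Rab3c, which had no TCF12 peak, also held a main E-box in this stretch.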

How the data were processed

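TCF12 ChIP-seq peak lists of both replicates were used. Per the labels and the deposited file descriptions, the authors called peaks against a control alignment for each replicate and for the pooled reads, and kept reproducible peaks by IDR. The software for alignment and peak calling is not given in the sources used here, and read depth is unknown. The signal value of each peak is the authors' caller's own, deposited without a stated scaling. The score of the optimal list is the scaled IDR score the authors deposited, up to 1000. Spans of genes are RefSeq GRCm38.p6. Strand came from the RefSeq promoter table for 16457 genes and otherwise from GENCODE vM1 for 3867. Replicate values are the highest signal of an overlapping relaxed peak (1 bp or more). The mm9 peaks were read with the NCBIM37 genome and GENCODE vM1, with no conversion between builds. Wilson intervals (95%) treat genes or peaks as independent and cover counting error only. With 1 group, no test between conditions was made.

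The members and lists were chosen with earlier results of these data known. Every member was named, the 12 with the strongest peak with both replicate signals. Up to 5 regulators with the strongest peak and up to 4 without one were named per list. Sequences printed are a choice from those 12 and others picked later. Window assignment was tested on simulated data. Alternatives were the conservative list, a stricter score, each replicate alone, other windows and promoter widths, and other motif windows. Python 3.11.15 with pandas 2.3.3, NumPy 2.4.6 and SciPy 1.17.1 was used.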

Additional observations from a re-analysis of the deposited data

How the results depend on the processing

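The number of RAB genes with a peak stayed between 41 and 47 over the alternative lists, windows and single replicates, beside 46. The share of all genes with a peak ran from 52.3% at the stricter score to 59.6% with a single replicate. The number of RAB genes with a promoter peak lay between 29 and 35, beside 33. For all genes that share ran from 36.9% at the stricter score to 45.0% with any RefSeq start. An IDR score of at least 830 left 80 summits in RAB windows, against 123, and lost Rab29, Rab40b, Rab5a, Rab31 and Rab39. Each replicate alone was read as the 35848 highest peaks of its relaxed list, the same number as in the optimal list. Since the list size was fixed, totals near those of the optimal list say little about stability. With replicate 1 and then replicate 2 left out, the summits numbered 118 and 122 and the genes with a peak 43 and 47. The genes with a promoter peak numbered 34 and 33 and the regulators 107 and 108. The conservative list lost Rab40b and Rab18 and gained Rab4b, replicate 2 alone lost Rab40b, Rab5a, Rab31 and Rab39 and gained Rab4b, and replicate 1 alone gained Rab4b and lost none. Rab42 was lost with a window of 5 kb. Assigning summits to the nearest 5′ end lost Rab34, Rab40b and Rab13 and gained Rab4a. Without Rab37, an alternative chosen after seeing the data, 105 summits were left, and merging overlaps, also chosen after, left 106. The main E-box share was 16.9% within 25 bp and 42.9% within 100 bp, against 28.6% within 50 bp, since a wider window holds more sequence. The mm9 list pools both replicates, so none could be left out there. No paired analysis was possible because there is only 1 group. Depth is unknown, so the absence of a peak is not the absence of binding.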
